A study of Mus musculus with 9 samples.

Results

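Myelin genes of Schwann cells were followed in the tibialis anterior, the fast-fibred muscle at the front of the shin, which holds motor and sensory nerve branches between its fibres. The genes were Mbp, Pmp22, Prx, Cnp and Mal, chosen by name, and all 5 were found among the 14971 protein-coding genes listed in either deposited table and the 14300 listed in both. The mice were male, of the C57BL/6J strain, and sampled 4 weeks after treatment. There were 3 groups, each with 3 libraries: Control, ORX (orchiectomy, which removes the testes) and ORX+DHT (orchiectomy plus the androgen dihydrotestosterone, which is not converted to oestrogen). The Control columns are called sham in the tables, and the labels name no allele or other agent in any group. The labels call the replicates biological but do not say whether muscles were pooled, so p-values measure the spread between these libraries. The dose and form of DHT and the age of the mice are not given in the sources used here.

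Schwann cells wrap axons of peripheral nerves in a spiral of membrane, the myelin sheath, which lets impulses jump between gaps in the sheath. A factor cascade led by Sox10 and Egr2 turns on the myelin genes together when a Schwann cell contacts a large axon. Mbp is the cytoplasmic glue that holds membrane layers together, Pmp22 a small membrane protein of compact myelin, Prx (periaxin) a scaffold that anchors the outer sheath to the extracellular matrix, Cnp an enzyme of the uncompacted cytoplasmic channels, and Mal a lipid raft protein that sorts cargo to the sheath. Pmp22 is also made by fibroblasts and many other cells, a long form of Mbp by immune cells and Cnp and Mal at low level by several cell types. In whole muscle, fewer Schwann cells and less RNA per Schwann cell cannot be told apart.

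Between 1340209 and 1682235 reads per library were recovered over the listed genes. Control replicate 1 stood apart from the other 8 libraries: on the first principal component (30.7% of the variance) its score was -47.2 and the others lay between 0.716 and 10.6. Fold changes of the tested members against Control are therefore also given without it. The members were thinly covered, with 15 to 47 reads per library for Mbp, 41 to 72 for Pmp22, 8 to 20 for Prx, 14 to 26 for Cnp and 2 to 14 for Mal. Levels below are normalised counts on a scale common to all 9 libraries.

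The label was checked against other Schwann cell genes. Sox10, the defining Schwann cell factor, ranged from 0 to 4.94, and Egr2, the myelination factor, from 0 to 4.91. S100b, a Schwann cell calcium-binding protein, ranged from 0 to 5.93 and Mag, an adhesion protein facing the axon, from 0 to 5.12. Of 52 further Schwann cell genes on 5 lists, 49 were in both tables, 15 had a mean of at least 10 and 28 a mean under 5. Erbb3, the neuregulin receptor of Schwann cells, ranged from 3.87 to 14.2 and Drp2, the partner of periaxin in the outer sheath, from 5.80 to 16.2. The defining factors thus lay near the limit of detection, and all 5 members had higher means than Sox10 and Egr2. Mal, however, had a mean of 5.43, below Erbb3 (9.65) and Drp2 (11.3). Several other genes of the lists had higher means than every member, some of which, such as Cryab and Jun, are also made by muscle fibres.

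The upstream sequences of Prx and Cnp are shown because these genes behaved differently from each other relative to Mbp, as described further on. Both come from RefSeq (GRCm38.p6) and run 5′ to 3′ on the plus strand up to the base before the first annotated start. Capitals mark matches to ACAAAG, a SOX family core, on either strand.
Prx, chr7:27499074-27499323, 250 bases: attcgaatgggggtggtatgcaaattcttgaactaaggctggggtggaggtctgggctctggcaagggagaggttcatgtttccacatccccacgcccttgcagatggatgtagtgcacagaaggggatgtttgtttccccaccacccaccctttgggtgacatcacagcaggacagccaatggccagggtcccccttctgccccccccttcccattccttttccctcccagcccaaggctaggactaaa
Cnp, chr11:100574689-100574903, 215 bases: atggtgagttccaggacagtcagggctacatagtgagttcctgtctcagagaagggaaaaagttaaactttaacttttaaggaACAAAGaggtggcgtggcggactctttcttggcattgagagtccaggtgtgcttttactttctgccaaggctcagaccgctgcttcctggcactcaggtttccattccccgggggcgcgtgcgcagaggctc
The Cnp stretch held 1 match to ACAAAG, which begins 132 bases before the GENCODE start, and the Prx stretch held none. ACAAAG or its reverse complement is in 18.7% of 32851 windows of the same RefSeq table, which also reach past the start and so are longer than these stretches. Neither stretch held AGAACA, a core motif bound by the androgen receptor that is in 19% of the windows, nor GCGTGGGCG, an EGR family site in 0.612% of them. A match or its absence describes these letters only.

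Orchiectomy was compared with Control first, to ask whether removal of testicular androgen goes with a change in myelin transcripts. None of the members passed: of the 4 that were tested, 0 were called by limma at an adjusted p under 0.05, against 0.0579% of all 8631 genes tested (0.0116% higher and 0.0463% lower). Mbp had an unadjusted limma p under 0.05, as did 7.21% of all genes, and edgeR and DESeq2 on the recovered reads also called 0 members, with 1 member each, Mbp, at an unadjusted p under 0.05. A positive log2 fold change was seen for 3 of the 4 members, with a median of 0.31, and for 48.9% of all genes, with a median of -0.01. Mal was below the minimum mean of 10 and was not tested with the others.

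Mbp (ENSMUSG00000041607, GRCm38 chr18:82475146-82585637, plus strand) stood at 18.7, 17.7 and 25.8 normalised counts in Control replicates 1, 2 and 3. It stood at 46.1, 24.7 and 33.9 in ORX and at 17.2, 42.5 and 29.6 in ORX+DHT. ORX libraries 1 and 3 lay above all Control libraries and ORX library 2 lay just below the highest of them, so the groups overlapped, and the ORX+DHT libraries spanned nearly the whole range. The means were 20.7 ± 4.43, 34.9 ± 10.7 and 29.8 ± 12.7 (SD, n = 3). The log2 fold change of ORX against Control was 0.70 (SE 0.27, 95% interval 0.10 to 1.30), with a limma p of 0.0259 and an adjusted p of 0.675. Without Control replicate 1 it was 0.64 (limma adjusted p 0.415). A rise of up to 2.46-fold is inside this interval, so the comparison does not show that a sizeable change of Mbp is absent.

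**Figure D1:**
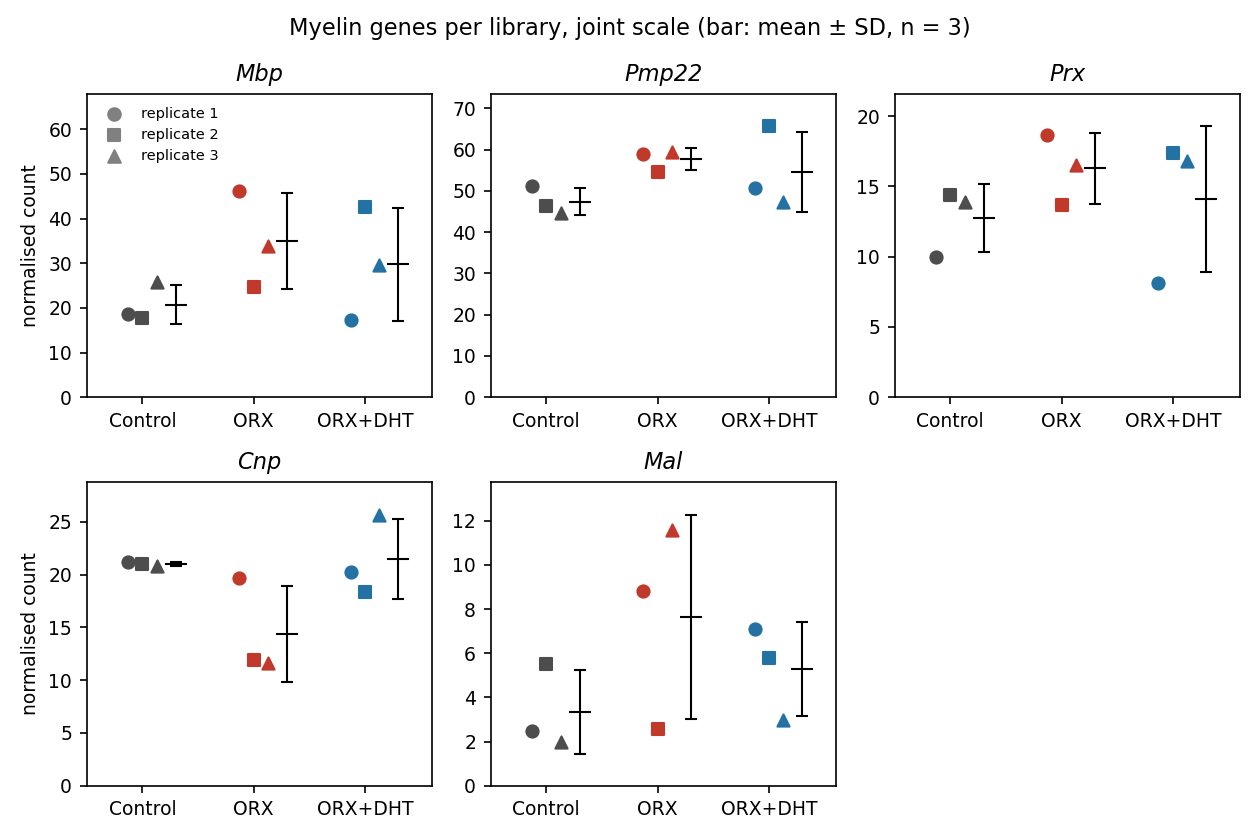
Normalised counts (vertical axis, joint scale, from 0) of the 5 members in Control, ORX and ORX+DHT libraries; each symbol is 1 library, its shape the replicate number, and the bar the mean ± SD of 3 libraries. Mbp and Prx spread widely within ORX+DHT, Pmp22 lies higher in all ORX than in all Control libraries, and Cnp is lowest in ORX replicates 2 and 3.

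Pmp22 (ENSMUSG00000018217, chr11:63128982-63159547, plus strand) stood at 51.2, 46.4 and 44.7 normalised counts in Control replicates 1, 2 and 3. In ORX it stood at 58.9, 54.6 and 59.6, and in ORX+DHT at 50.7, 65.7 and 47.4. All ORX libraries lay above all Control libraries, which 14.3% of all genes tested also showed in 1 direction or the other. The means were 47.4 ± 3.36 in Control and 57.7 ± 2.70 in ORX (SD, n = 3). The log2 fold change was 0.28 (SE 0.18, 95% interval -0.11 to 0.66, limma adjusted p 0.752). Without Control replicate 1 it was 0.33 (limma adjusted p 0.522). Pmp22 was the best covered member. With all Control libraries, the upper end of its 95% interval was a 1.58-fold rise.

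Prx (ENSMUSG00000053198, chr7:27499324-27520214, plus strand) stood at 9.99, 14.4 and 13.9 in Control, 18.7, 13.6 and 16.5 in ORX and 8.11, 17.4 and 16.8 in ORX+DHT libraries. The groups overlapped, and the lowest library of all was ORX+DHT replicate 1. The log2 fold change of ORX against Control was 0.33 (SE 0.29, limma adjusted p 0.811), and 0.18 without Control replicate 1. An antisense gene, Gm15541, overlaps Prx exons, and the libraries keep the strand, but whether counting used it is not given in the sources used here.

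Cnp (ENSMUSG00000006782, chr11:100574904-100591729, plus strand) was the only tested member with a lower mean in ORX than in Control. It stood at 21.2, 21 and 20.9 in Control, 19.6, 11.9 and 11.6 in ORX and 20.3, 18.4 and 25.7 in ORX+DHT libraries. All ORX libraries lay below all Control libraries, although ORX replicate 1 was close to them. The groups of 14.3% of all genes tested also did not overlap, in 1 direction or the other. The log2 fold change was -0.56 (SE 0.28, 95% interval -1.17 to 0.05, limma adjusted p 0.695), -0.55 without Control replicate 1, and -0.43 to -0.79 when single ORX libraries were left out. Exons of Dnajc7, on the other strand, overlap those of Cnp, and the mean of Dnajc7 was 202 ± 32.9 for Control, 170 ± 12.9 for ORX and 195 ± 4.66 for ORX+DHT (SD, n = 3). Its part in the Cnp values was not tested.

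Mal (ENSMUSG00000027375, chr2:127633226-127656695, minus strand) stood at 2.50, 5.53 and 1.99 in Control, 8.83, 2.56 and 11.6 in ORX and 7.09, 5.80 and 2.96 in ORX+DHT libraries. These values rest on 9 reads in all Control libraries together (exact Poisson 95% interval 4.12 to 17.1), 26 in ORX (17 to 38.1) and 16 in ORX+DHT (9.15 to 26). The intervals cover counting error only. With no filter on low genes, the log2 fold change of ORX against Control was 0.90 (SE 0.54, 95% interval -0.25 to 2.04, limma adjusted p 0.783), and the groups overlapped. ORX+DHT against ORX gave -0.34 (limma adjusted p 0.817) and ORX+DHT against Control 0.56 (limma adjusted p 0.806).

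The DHT comparison, ORX+DHT against ORX, asks whether the androgen shifts the myelin transcripts of orchiectomised muscle. It called 4.08% of 8770 genes (2.38% higher and 1.7% lower), and 0 of the 4 tested members were among them, with 0 members at an unadjusted p under 0.05, against 14.3% of all genes. By edgeR and DESeq2, 0 members were called, and 0 had an unadjusted p under 0.05. The groups overlapped for all 4 tested members, where 19.5% of all genes did not overlap. A positive value was seen for 1 of the 4 members, with a median log2 fold change of -0.17, and for 50.8% of all genes, with a median of 0.01.

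For Mbp the log2 fold change of ORX+DHT against ORX was -0.27 (SE 0.28, 95% interval -0.87 to 0.33, limma adjusted p 0.741). Prx had -0.25 (SE 0.31, limma adjusted p 0.78) and Pmp22 -0.09 (SE 0.16, limma adjusted p 0.859). ORX+DHT replicate 1 decided the sign of Mbp and Prx: without it their log2 fold changes were 0.07 and 0.08. Without ORX+DHT replicate 3, that of Pmp22 was 0.0031. Cnp had the opposite sign, 0.57 (SE 0.27, 95% interval -0.01 to 1.15, limma adjusted p 0.355), and stayed between 0.38 and 0.80 under every alternative run. The low Cnp values of ORX replicates 2 and 3 enter this comparison and the one before it, since the ORX libraries are shared.

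Muscle given the androgen was last compared with Control muscle. Of the 4 members tested, 0 were called by limma, edgeR or DESeq2 and 0 had an unadjusted p under 0.05 by any of them. Over all 8595 genes, 0.0349% were called by limma (0.0116% higher and 0.0233% lower), 49.3% had a positive log2 fold change, as did all 4 members, and 6.48% had an unadjusted p under 0.05. The groups overlapped for all 4, where 14% of all genes did not overlap. Cnp averaged 21 ± 0.186 normalised counts in the Control libraries against 21.4 ± 3.80 after DHT (SD, n = 3; log2 fold change 0.01, 95% interval -0.51 to 0.54). Mbp had a log2 fold change of 0.43, Pmp22 of 0.19 and Prx of 0.08, with limma adjusted p of 0.774, 0.833 and 0.961. Without Control replicate 1 these were 0.37, 0.24 and -0.07, and that of Cnp was 0.02.

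**Figure D2:**
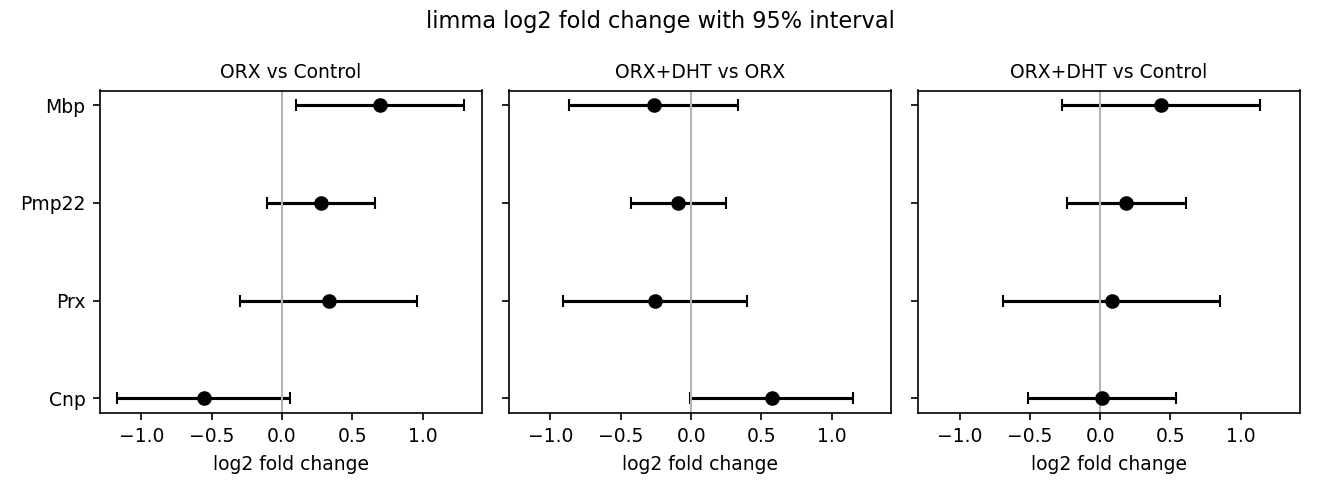
Log2 fold change (horizontal axis, limma on log2 of value + 1) with its 95% interval for the 4 tested members in the 3 comparisons. The interval of Mbp excludes 0 in ORX against Control, those of the other members include it in every comparison, and Cnp lies on the other side of 0 from Mbp, Pmp22 and Prx in the comparisons with ORX.

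Per kilobase of merged exons, which allows levels to be set beside each other, Pmp22 was the most abundant member at 22.6 ± 2.98 normalised counts per kilobase (SD over 9 libraries). Cnp followed at 5.21 ± 1.25, Mbp at 3.36 ± 1.25, Prx at 2.58 ± 0.625 and Mal at 1.95 ± 1.19. The step from Pmp22 to Cnp exceeded the spread of both, whereas each of the other neighbours in this order differed by less than the sum of their SDs. The merged exons of Mbp span 8469 bases because all annotated forms are joined, and a length taken from a shorter form would give a higher level per kilobase.

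The members did not all vary together. Mbp and Prx had the strongest relation across the 9 libraries on the log2(value + 1) scale, with Pearson's r of 0.83 (exact permutation p 0.0037, 0.0555 after adjustment over the 15 pairs computed, of which those that are not between members are not reported). Spearman's rho was 0.88 (exact permutation p 0.00308, adjusted 0.0461). Without ORX replicate 1 and ORX+DHT replicate 2, the libraries farthest from the median of Mbp, r was 0.78, and with the mean of each group removed it was 0.83. By Spearman's rho it passed the threshold after adjustment and by Pearson's r it did not. The relation was as large within groups as over all libraries, although no group holds enough libraries for a test of its own. Library by library, ORX replicate 1 and ORX+DHT replicate 2 were high in both genes and ORX+DHT replicate 1 was lowest in both.

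Cnp did not follow this pattern. Its r with Mbp was -0.20 and with Prx -0.14 (exact permutation p 0.595 and 0.754, adjusted 0.638 and 0.754). It made up 19.4% to 20.5% of the members' summed level in Control, 8.7% to 12.9% for ORX and 12.3% to 21% for ORX+DHT libraries. Mbp was 0.842 to 1.24 times the Cnp value in Control, 2.07 to 2.93 times in ORX and 0.85 to 2.32 times in ORX+DHT libraries. The ORX and Control ratios did not overlap, but the ratio was picked after its values were seen, and an exact permutation test of 3 libraries against 3 cannot give a two-sided p under 0.1. Pmp22 and Mbp had an r of 0.70 (exact permutation p 0.0408, adjusted 0.204; rho 0.60, p 0.0968, adjusted 0.242). That r fell to 0.37 without ORX replicate 1 and ORX+DHT replicate 2, so it rested on those libraries.

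**Figure D3:**
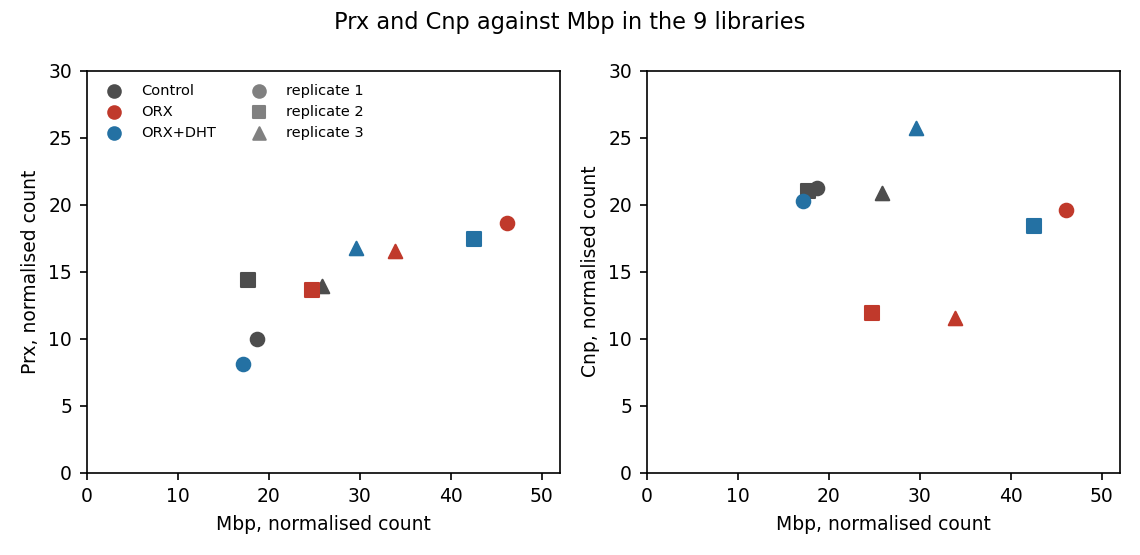
Prx (left) and Cnp (right) against Mbp, all in normalised counts on linear axes from 0; each symbol is 1 of the 9 libraries, coloured by group and shaped by replicate number. Prx tends to be higher where Mbp is higher, but not at every step. It is at 14.4 in Control replicate 2 (Mbp 17.7) and at 13.6 in ORX replicate 2 (Mbp 24.7). Cnp stays near 20 in most libraries and is at 11.9 and 11.6 in ORX replicates 2 and 3.

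How far single libraries can be read is set by counting. For 9 of the 15 combinations of member and group, the SD between libraries was below the SD that counting alone gives. Cnp in Control had an SD of 0.186 where counting gives 4.85, so its 3 values lie closer together than their read counts can resolve. The largest excess was that of Mbp in ORX+DHT, with an SD of 12.7 against 5.41 from counting, followed by Mbp in ORX with 10.7 against 5.61. Pmp22 and Prx in Control and ORX varied by less than counting alone gives.

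Summed over the 5 members, the Control libraries lay within 104 to 107 normalised counts, the ORX libraries at 152, 107 and 133 and the ORX+DHT libraries at 103, 150 and 123. The means were 105 ± 1.83, 131 ± 22.4 and 125 ± 23.4 (SD, n = 3). The groups overlapped between ORX and ORX+DHT over nearly their whole range, and ORX replicate 2 lay next to the controls.

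Among the other Schwann cell genes, 15 were tested in ORX against Control and 0 were called by limma, against 0.0579% of all genes. An unadjusted limma p under 0.05 was found for 4, against 7.21% of all genes. The groups did not overlap for 4, against 14.3%. The median log2 fold change of the 15 was -0.05, and 7 of them were positive.

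Single genes of the Schwann lists, which hold more than sheath genes, gave mixed values. Cd9, a tetraspanin of many cell types, averaged 24.7 ± 6.16 for Control, 40.8 ± 8.02 for ORX and 29.9 ± 4.37 for ORX+DHT (SD, n = 3; log2 fold change of ORX against Control 0.71, limma adjusted p 0.669). Ncam1, an adhesion molecule of unmyelinated Schwann cells and of muscle fibres, named after its values were seen, stood at 7.28 ± 2.76, 16.4 ± 5.10 and 8.90 ± 1.71 (log2 fold change 1.09, limma adjusted p 0.653). Cd59a, a complement inhibitor, and Abca2, a lipid transporter, did not pass in ORX+DHT against ORX. The log2 change of Cd59a was -0.78, with a limma adjusted p of 0.0597, and that of Abca2 was 0.61, with 0.0769. Yap1, a transcriptional co-activator, had 0.16 there (limma adjusted p 0.589) and Mtmr2, a lipid phosphatase, 0.19 (limma adjusted p 0.737).

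In ORX+DHT against ORX, 2 of 16 tested genes of these lists rose and 0 fell, with a median log2 fold change of 0.12, where 4.08% of all genes were called. An unadjusted limma p under 0.05 was found for 7 of the 16, against 14.3% of all genes, and the groups did not overlap for 6, against 19.5%. Nothing particular to these lists is read from these counts. The 2 genes that rose, Cryab and Jun, are made by muscle fibres as well as by Schwann cells. Cryab, a small heat shock protein, rose from 645 ± 60.4 to 814 ± 56.8 (SD, n = 3; log2 fold change 0.34, limma adjusted p 0.0384). Jun, a stress and injury factor, rose from 107 ± 11.9 to 156 ± 20.8 (log2 fold change 0.53, limma adjusted p 0.0231). Both calls were lost with all 9 libraries in 1 fit (limma adjusted p 0.713 for Cryab and 0.135 for Jun) and by DESeq2 (adjusted p 0.131 and 0.0917). The call of Cryab was also lost without ORX replicate 2 or 3 or any single ORX+DHT library (limma adjusted p 0.0599 to 0.216) and after quantile normalisation (0.0977), and that of Jun without ORX replicate 3 or ORX+DHT replicate 2 or 3 (0.0904 to 0.115). In ORX+DHT against Control, 0 of 14 were called by limma, with 3 at an unadjusted p under 0.05, against 0.0349% and 6.48% of all genes.

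Some markers of other cells moved between the same groups. The summed level of 10 fibroblast genes, led by Col1a1 and Col1a2, was 2498 to 4538 normalised counts in Control, 4814 to 6603 for ORX and 3178 to 4252 for ORX+DHT libraries, so ORX lay above both. In ORX against Control 0 of 10 were called by limma, with 5 at an unadjusted p under 0.05, against 0.0579% and 7.21% of all genes. In ORX+DHT against ORX 3 of 10 were called lower (Col1a1, Col1a2 and Lum, with log2 fold changes of -1.18, -1 and -1.79), where 1.7% of all genes were called lower. Some other genes of the list moved little or the other way. In ORX against Control 8 of 10 had a positive log2 fold change, Dcn at 0.16 and Gsn at 0.04, and Pdgfra and Mfap5 had -0.22 each. In ORX+DHT against ORX 2 of 10 were positive, Gsn (0.37) and Pdgfra (0.06), and Dcn had -0.05. The sum of 8 tendon genes, led by Thbs4 and Fmod, was 343 to 463, 503 to 833 and 325 to 407. In ORX+DHT against ORX 2 of 6 tested fell (Fmod and Chad, with log2 fold changes of -1.28 and -1.49), against the same 1.7%. The call of Chad was lost without ORX replicate 2 or 3 or ORX+DHT replicate 1 or 3 (limma adjusted p 0.0616 to 0.154) and with all 9 libraries in 1 fit (0.171), and that of Fmod under robust eBayes (0.267). Both sums were higher in every ORX library than in any other library, and their part in the Mbp and Pmp22 values was not tested.

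The sum of 10 muscle fibre genes, led by Myh4 and Acta1, was 327120 to 393502 in Control, 289022 to 298106 for ORX and 299247 to 325844 for ORX+DHT libraries. In ORX+DHT against ORX 3 of 10 were called higher (Acta1, Myh1 and Tnni2, with log2 fold changes of 0.47, 0.47 and 0.39), where 2.38% of all genes were called higher. The list did not move in 1 direction: 6 of the 10 had a positive log2 fold change, with a median of 0.12. Myh4 had -0.08, Atp2a1 -0.08, Actn3 -0.16 and Pvalb -0.28 (limma adjusted p of Pvalb 0.154). Leaving out ORX replicate 2 ended the calls of Acta1 and Tnni2 (limma adjusted p 0.0529 and 0.0658), as did leaving out ORX+DHT replicate 3 for Tnni2 (0.0735), and all 3 calls were lost with all 9 libraries in 1 fit (0.265 to 0.715). Quantile normalisation lowered the log2 fold changes of Acta1, Myh1 and Tnni2 to 0.28, 0.22 and 0.21 and ended the call of Myh1 (limma adjusted p 0.158). The 8 perineurial genes, led by Itga6 and Itgb4, which mark the sleeve around nerve bundles and also vessels and other cells, summed to between 82.4 and 133 for Control, 122 and 157 for ORX and 110 and 170 for ORX+DHT libraries. The groups of this sum overlapped and 0 of 3 tested genes were called in any comparison by limma, with 0 at an unadjusted p under 0.05. The sum of 10 endothelial genes, led by Cdh5 and Pecam1, was 1166 to 1285, 1136 to 1324 and 1312 to 1447.

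Lymphocyte markers were low, whereas the macrophage sum was of a size similar to that of the 5 myelin members (103 to 152). The 10 macrophage genes, led by Lyz2 and Mrc1, summed to 69.7 to 126 in Control, 82.7 to 165 for ORX and 122 to 163 for ORX+DHT libraries. The 7 lymphocyte genes in both tables summed to 1.98 to 7.44, with Ptprc and Cd3e the highest. Cd3e had 1, 2 and 0 reads in Control, 0, 2 and 2 in ORX and 0 in every ORX+DHT library, too few to compare groups. The sum of 10 adipocyte genes, led by Fabp4 and Plin4, lay between 711 and 940 for Control, 764 and 910 for ORX and 918 and 958 for ORX+DHT libraries, and that of 6 erythroid genes, led by Hbb-bs and Hba-a1, was 148 to 248, 87.8 to 252 and 184 to 212. The groups of these sums overlapped except for the adipocyte sum between ORX and ORX+DHT. That sum rested mostly on Fabp4 (mean over 9 libraries 447) and Plin4 (370). Adipoq (4.20), Plin1 (2.58), Cidec (2.32), Retn (1.93) and Lep (0.80) lay near the limit of detection, so the separation is not read as one of adipocytes.

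**Figure D4:**
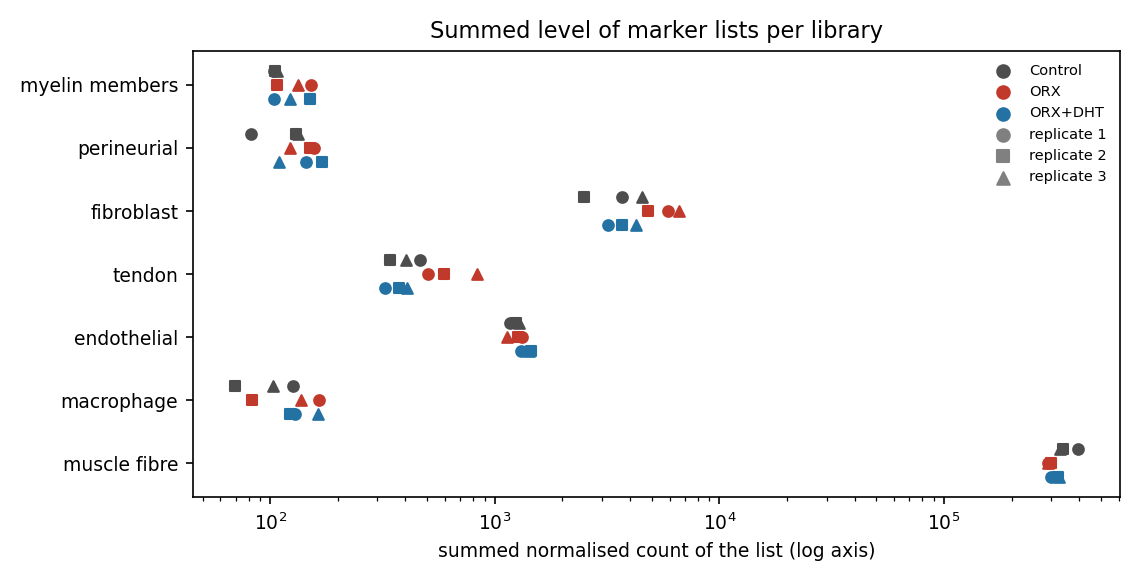
Summed normalised counts (horizontal log axis) of the 5 myelin members and of 6 marker lists of other cells; each symbol is 1 library, coloured by group and shaped by replicate number. The fibroblast and tendon sums lie higher in ORX than in both other groups, while the myelin sum overlaps between ORX (107 to 152) and ORX+DHT (103 to 150).

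The genes whose levels most resembled the mean z-score of the 5 members over the 9 libraries, among 3794 genes with a mean of at least 50, were Nbr1, Cog6, Mcam, Fbn1 and Dpf2, with Pearson's r of 0.98, 0.87, 0.86, 0.85 and 0.83. With Spearman's rho 3 of these 5 remained among the first 5, without Control replicate 1 2 did, and with group means removed 1 did, Nbr1 leading each time. For single members the leading genes were Sugp2, Dpf2 and Col15a1 for Mbp (r of 0.90, 0.90 and 0.88) and Brd1, Dpf2 and Safb2 for Prx (0.96, 0.91 and 0.87). They were 9330159F19Rik, Ext2 and Ppp2r1a for Pmp22 (0.88, 0.87 and 0.87), Ubac2, Oxnad1 and Cnksr1 for Cnp (0.91, 0.88 and 0.87) and Sugt1, Lama2 and Rab5c for Mal (0.90, 0.87 and 0.85). Dpf2 appears for both Mbp and Prx, which the correlation of this pair makes likely, so it is no further evidence for the pair. These r are the highest of 3794 and describe likeness in these 9 libraries only.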

How the data were processed

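PolyA RNA was sequenced from strand-keeping libraries, per the labels' protocols. The submitters' processing notes list Trim Galore 0.6.7, HISAT2 2.2.1, featureCounts 2.0.1, DESeq2 1.36.0 and GRCm38, with no roles. The authors deposited 2 separately scaled tables of normalised counts (a signal: reads over 1 size factor per library). Reads were recovered as whole multiples of each column's step (100% of values within 1e-06); 0 columns were unmapped. In Control replicate 3, 1 read is worth nearly 1 unit, so rounding to whole numbers would look alike.

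Each comparison was fitted with limma 3.58.1 (R 4.3.3, trended eBayes) after log2(value + 1), over genes whose mean reached 10, with Benjamini-Hochberg adjustment over all genes tested. Fold changes on this scale understate those of low genes. ORX+DHT against Control used the libraries of these groups only, on the scale from median-of-ratios factors of all 9 libraries. edgeR 4.0.16 and DESeq2 1.42.0 on recovered reads were alternatives. Fits were tested on simulated data. Coordinates and merged exon lengths are from GENCODE M21 (GRCm38).

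The members and lists were chosen with earlier results of these data known; the motifs were chosen after the sequences were read. Genes named are the members; of the Schwann lists the 8 highest and those called; of other lists the 2 highest and up to 3 called; and the genes most like the members (5) and like each member (3). Some genes of the Schwann lists are counted with their list but their values are not reported here.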

Additional observations from a re-analysis of the deposited data

How the results depend on the processing

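No member was called under any alternative run: of 195 log2 fold changes of members, 187 kept their sign and side of the threshold and 8 changed sign (lowest adjusted p of a member over all settings 0.177). Leaving out single libraries in ORX+DHT against ORX gave Mbp -0.56 to 0.067 (positive without ORX+DHT replicate 1), Prx -0.43 to 0.077 (without the same library) and Pmp22 -0.23 to 0.0031 (without ORX+DHT replicate 3). In ORX+DHT against Control it gave Prx -0.096 to 0.41 (below 0 without Control replicate 1 or ORX+DHT replicate 2 or 3) and Cnp -0.12 to 0.11 (below 0 without ORX+DHT replicate 3). Quantile normalisation gave Cnp -0.013 there. The cause was not tested.

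Counts over all genes were 5 for ORX against Control, 358 for ORX+DHT against ORX and 3 for ORX+DHT against Control. All 9 libraries in 1 fit gave 23, 123 and 11, and DESeq2 gave 28, 224 and 13. With no filter the first was 16 and the last 21, and quantile normalisation gave 6 for the last. Quantile normalisation moved the share of calls that were higher from 58.4% of 358 to 49.2% of 327 in the second, so that fewer calls were higher than lower. In the first it moved from 20% of 5 to 33.3% of 6 and in the last from 33.3% of 3 to 66.7% of 6. Leaving out single libraries gave 1 to 52 in the first (52 without Control replicate 1, 20 without Control replicate 3, 1, 1 and 2 without ORX replicates 1, 2 and 3), 217 to 349 in the second (217 without ORX+DHT replicate 1) and 0 to 68 in the last. That last count was 68 without Control replicate 1, 1 without Control replicate 3 or ORX+DHT replicate 1, and 0 without ORX+DHT replicate 3, where 323 genes had an unadjusted limma p under 0.05. The cause was not tested.

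The groups share replicate numbers by label only, and same-numbered libraries deviated with correlations of -0.165 to 0.151. With the replicate block 571 genes were called in ORX+DHT against ORX, where 6 of 6 libraries correlated best with their own number (1 of 6 and 0 of 6 in the others). The block called 0 members. Reads limit Mal most, with 2 to 14 per library, and of the members only Pmp22 reached a minimum mean of 50.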
